A study of Homo sapiens with 2 samples.

Results

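The genes described are the myosins and the proteins that build or regulate muscle filaments, as expressed in a leukaemia line of B-cell precursors. Members were taken by gene symbol: every row of the count table whose symbol starts with MYH, MYO or MYL, or with MYBPC, TNNC, TNNI, TNNT, TPM or ACTN, followed by a digit. This gave 76 of 25702 gene rows. Of these, 72 fall into 10 role groups (heavy chains of class II in a non-muscle and a striated muscle group, unconventional myosins of class I and of other classes, regulatory and essential light chains, myosin-binding proteins C, troponins, tropomyosins and alpha-actinins), and 4 are other rows that the symbols bring in. RNA came from REH cells (labelled REH-R), an established human line of B-ALL (acute lymphoblastic leukaemia of B-cell precursors) engineered with a tet-regulated cassette. In the PAX5 library the cassette was PAX5-IRES-GFP, which makes the transcription factor PAX5 and, through an internal ribosome entry site, green fluorescent protein. In the control library the cassette was IRES-GFP without PAX5. Doxycycline (1 µg/mL, 3 days) was given to both cultures before GFP-positive cells were sorted, so drug, reporter and sorting are shared. The comparison addresses what induced PAX5 changes in these cells. There was 1 library per group: no difference has a replicate check, no p-value is given, and every interval covers counting error between these libraries only.

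Myosins are motors that pull on actin filaments with energy from ATP. Class II myosins assemble into bipolar filaments from heavy chains with regulatory and essential light chains, and they drive contraction in muscle and cortical tension, division and migration in other cells. Unconventional myosins do not form such filaments and instead carry membranes, organelles or receptors or link membranes to actin. In striated muscle, the sarcomere adds alpha-actinin at its Z-discs, myosin-binding protein C on the thick filament, and tropomyosin with the troponins C, I and T on the thin filament, which make contraction depend on calcium. Lymphocytes use non-muscle class II myosin and haematopoietic class I myosins for shape, migration and antigen contacts, and are not known for sarcomeres.

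Total counts were 11944765 for PAX5 cells and 10997864 for control cells, and the members held 72449 and 59786 of them. That is 0.607% of the PAX5 library (exact binomial 95% interval 0.602 to 0.611) and 0.544% of the control library (0.539 to 0.548). PAX5 itself had 8319 counts in PAX5 cells, against 2660 in control cells (2.91-fold, 2.78 to 3.04), so the labelled difference is present. Counts per gene do not separate cassette from endogenous transcript. All 10 B-cell precursor markers were measured, from VPREB1 (17 and 7 counts) to RAG1 (32494 and 32110), and RAG1, DNTT and MME gave most of the summed level of 8543 CPM (counts per 1000000 after scaling) in PAX5 cells and 8279 CPM in control cells. Of 8 skeletal muscle markers, 6 (MYOD1, MYOG, MYF5, MYF6, DES and MB) had 0 counts in both libraries, and the summed level of the list was 4.37 CPM in PAX5 cells and 4.98 CPM in control cells, most of it from ACTA1. Of 7 fibroblast and endothelial markers, CDH5 and COL3A1 had 0 counts in both libraries and COL1A2 and PECAM1 had 0 in PAX5 cells and 1 in control cells, and the list summed to 595 and 665 counts, mostly of PDGFRB. T-cell and myeloid markers summed to 21.2 CPM in PAX5 cells and 28.3 CPM in control cells, mostly from ITGAM, with CD3D, CD3G and CD2 at 0 counts.

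PAX5 cells contained transcripts of 5 members at levels far from the control cells, and the abundant actin-myosin genes of the cell differed little. MYH14 (heavy chain of non-muscle myosin IIC), MYBPC2 (the myosin-binding protein C of fast skeletal muscle), MYO7B (a myosin of intestinal brush border), MYO5B (a recycling endosome motor) and TNNT3 (fast skeletal muscle troponin T) were higher in the PAX5 library by a rule of size: the bound of the ratio's exact 95% counting interval nearest to no change lay at or beyond 2-fold, and both libraries together held at least 10 counts. In a bulk library, fewer cells with a transcript and less transcript per cell cannot be told apart. Of 76 members, 43 had at least 10 counts and are called measured, 16 had 1 to 9 counts and 17 had 0 counts in both libraries. The 5 are 11.6% of the measured members, where 1.34% of all 13532 measured features were higher by the same rule. None was lower, where 0.0517% of all measured features were. The 5 lay at ranks 2 (MYH14), 4 (MYBPC2), 6 (MYO7B), 76 (TNNT3) and 86 (MYO5B) of all measured features by their lower bound. Of the 5, 4 had fewer than 10 counts in the control library and so were measured through the PAX5 library alone, which means that the share describes the set and supports nothing about it.

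**Figure D1:**
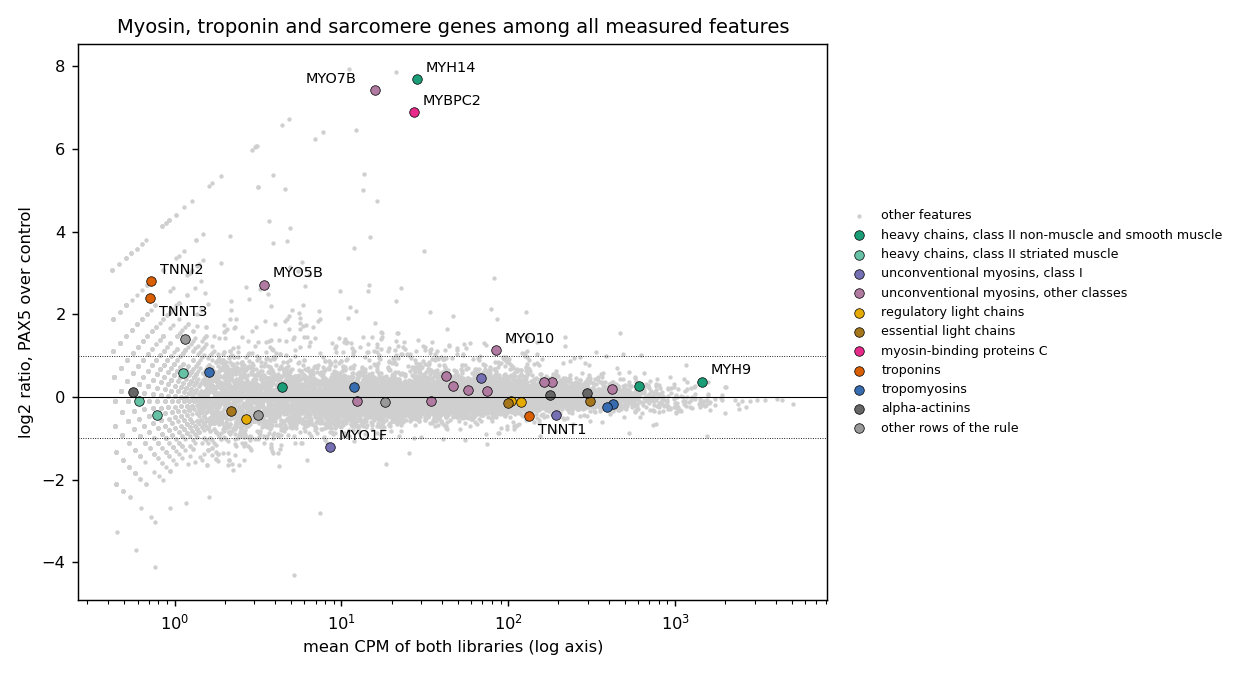
Each measured gene's log2 ratio of the PAX5 over the control library (vertical axis) against its mean CPM of both libraries (horizontal log axis), with 42 measured members coloured by role and other features in grey; dotted lines mark 2-fold, TNNT3 is drawn at its ratio over a floor of 3 control counts, and grey features with 0 counts in either library are not drawn. MYH14, MYO7B and MYBPC2 stand near the top, while members above 100 CPM lie within 0.5 of 0.

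Smaller differences were common. The counting interval lay above 0 for 20 of 43 measured members (46.5%, against 18.7% of all measured features) and below 0 for 8 (18.6%, against 16.8%). The median log2 ratio was 0.17 over measured members and -0.01 over all measured features. Intervals are narrow for abundant genes: among 21 members with at least 1000 counts, 12 had intervals above 0 (57.1%, against 28.7% of all features at that depth) and 7 below (33.3%, against 25.0%).

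RefSeq promoter windows (GRCh38.p14, 250 bases before to 50 after the annotated start) were at hand for 55 members, among them MYH14, MYO7B and MYO5B, whose sequences are shown because these genes differed most among the motors. MYBPC2 and TNNT3 had no entry. Each is written 5′ to 3′ on the gene's own strand, and capitals mark matches to the letters searched, on either strand, with no overlaps between them: the CCAAT box (CCAAT), the GC box (GGGCGG) and the E-boxes CAGCTG and CACCTG.
MYH14 (chr19:50203372-50203671, plus strand): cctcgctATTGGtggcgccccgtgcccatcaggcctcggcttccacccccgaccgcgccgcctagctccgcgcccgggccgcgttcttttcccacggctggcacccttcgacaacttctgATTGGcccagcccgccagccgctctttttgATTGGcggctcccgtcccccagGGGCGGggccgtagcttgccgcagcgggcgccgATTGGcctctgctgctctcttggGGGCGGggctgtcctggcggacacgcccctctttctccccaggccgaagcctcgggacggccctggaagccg
MYO7B (chr2:127535433-127535732, plus strand): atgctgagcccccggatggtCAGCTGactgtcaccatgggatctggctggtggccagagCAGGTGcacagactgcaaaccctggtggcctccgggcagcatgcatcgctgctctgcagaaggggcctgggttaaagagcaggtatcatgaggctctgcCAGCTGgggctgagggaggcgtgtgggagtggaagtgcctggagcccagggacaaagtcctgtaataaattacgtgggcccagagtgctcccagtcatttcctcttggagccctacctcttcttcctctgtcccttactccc
MYO5B (chr18:50195098-50195397, minus strand): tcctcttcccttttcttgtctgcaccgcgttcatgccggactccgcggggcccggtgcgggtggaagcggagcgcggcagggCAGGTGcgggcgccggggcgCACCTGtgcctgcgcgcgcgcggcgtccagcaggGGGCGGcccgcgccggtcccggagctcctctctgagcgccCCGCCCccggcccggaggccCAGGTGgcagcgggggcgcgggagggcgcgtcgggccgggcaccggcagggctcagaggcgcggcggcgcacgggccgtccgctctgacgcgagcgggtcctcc

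The 3 windows differ in kind. The MYH14 window had a GC content of 71.7% and held 4 CCAAT boxes, a number that 1.06% of 27305 promoters of this length reach, and 2 GC boxes (26.7% hold at least as many). The MYO5B window was the richest in G and C at 80.0%, with 3 CACCTG E-boxes (0.623% hold at least as many) and 2 GC boxes. The MYO7B window had 59.7% GC, a CpG content of 0.188 of that expected from its bases (0.848 in MYH14 and 0.984 in MYO5B), no GC box, 2 CAGCTG E-boxes (2.02%) and 1 CACCTG E-box (20.6%). The core letters of the PAX5 paired-domain site, GCGTGAC, matched none of the 3. They occur in 2.61% of all promoters and in 1 of the 55 member promoters, that of MYO9B, which did not pass the rule. The CArG box (1.29% of all promoters), the MEF2 box (3.09%) and the TATA element TATAAA (3264 of the 27305) matched 3, 4 and 10 of the 55, none of them among the 3. The CCAAT and GC boxes were added after the sequences had been seen, and a match describes letters, not a bound site.

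Among class II heavy chains of non-muscle and smooth muscle cells, MYH14 went up against a background of MYH9 and MYH10 that stayed dominant. MYH14 had 667 counts in PAX5 cells, against 3 in control cells, and its level was 8.12 CPM per kb of gene length against 0.0393. The ratio was 207-fold, with a counting interval of 70.4 to 1004 that is wide because of the 3 control counts. In PAX5 cells MYH14 stood below MYH9 and MYH10 and above MYH11, which had 0.691 CPM per kb there and 0.587 in control cells.

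MYH9, the heavy chain of non-muscle myosin IIA, was the most abundant heavy chain, with 19400 counts and 217 CPM per kb in PAX5 cells, against 13895 counts and 168 CPM per kb in control cells (1.30-fold, 1.27 to 1.33). MYH10, the IIB heavy chain, had 7906 against 6151 counts, 87.3 against 73.1 CPM per kb (1.19-fold, 1.16 to 1.24). Both intervals lie above no change without coming near the 2-fold rule. MYH11, of smooth muscle, had 57 against 45 counts and an interval that includes no change. Of the counts of these 4 genes, MYH14 took 2.38% in the PAX5 library (2.20 to 2.56) and 0.0149% in the control library (0.00308 to 0.0436), and MYH9 took 69.2% and 69.1%. The sum of the 4 was 313 CPM per kb in PAX5 cells and 241 in control cells.

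The 11 heavy chains of striated muscle were close to absent in both libraries. MYH1, MYH2, MYH4, MYH6, MYH7 and MYH8, which encode adult skeletal, cardiac and perinatal chains, had 0 counts in both, which leaves room for 3 counts, or 0.252 CPM in PAX5 cells and 0.272 CPM in control cells. The measured ones were MYH7B with 16 counts in PAX5 cells against 10 in control cells, the embryonic chain MYH3 with 8 against 10, and MYH15 with 7 against 7. All 3 intervals include no change. They reach beyond 2-fold upward, and those of MYH3 and MYH15 also downward, so differences of that size in these directions are not excluded. MYH13 and MYH16 had 3 counts or fewer over both libraries.

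**Figure D2:**
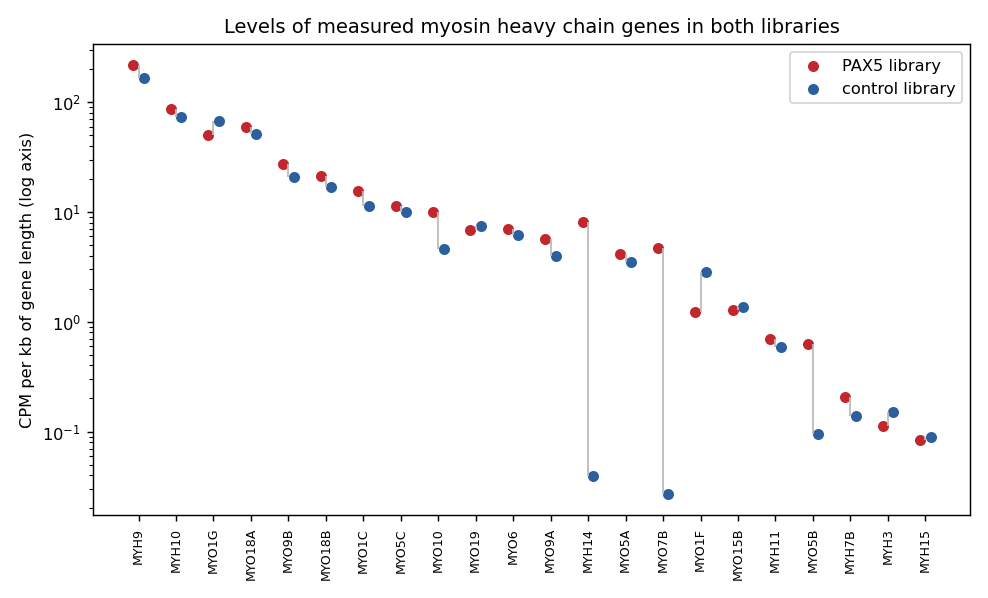
Level of 22 measured myosin heavy chain genes in CPM per kb of gene length (vertical log axis), PAX5 library in red at left and control library in blue at right, ordered by the summed level. MYH14, MYO7B and MYO5B show the wide gaps; MYH9 leads in both libraries at 217 and 168 CPM per kb.

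Class I myosins, single-headed motors that tie membranes to cortical actin, went both ways and none passed the rule. MYO1G, a haematopoietic class I myosin of the lymphocyte surface, had 1949 counts in PAX5 cells, against 2456 in control cells (log2 ratio -0.44, -0.53 to -0.35). MYO1F, of myeloid and other immune cells, had 61 against 132 counts (-1.22, -1.68 to -0.77) and lay furthest down of the 43 measured members. The myeloid marker ITGAM had 222 against 278 counts (-0.43, -0.69 to -0.17), and its part in this was not tested. The widely expressed MYO1C had 942 against 636 counts (0.46, 0.31 to 0.61).

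MYO1G thus gave 42.3% of class I counts in PAX5 cells (40.8 to 43.7) and 54.6% in control cells (53.1 to 56.0), and MYO1C gave 20.4% (19.3 to 21.6) and 14.1% (13.1 to 15.2). MYO1G had the most counts of the class in both libraries. The summed level of the class was 94.2 CPM per kb in PAX5 cells and 105 in control cells. MYO1A, MYO1E and MYO1H had under 10 counts over both libraries and MYO1D had 0.

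Of the 17 unconventional myosins of other classes, 12 were measured, 2 were higher by the rule and 10 had intervals above 0, none below, where 18.7% of all measured features and 44.0% of those in the longest 2 of 10 length groups lay above 0. Of these 10, 4 (MYO18A, MYO5A, MYO5C and MYO6) had intervals that include 0 after centring on gene length. MYO7B, which anchors the adhesion complex at the tips of intestinal microvilli, had 373 counts in PAX5 cells, against 2 in control cells, 4.67 against 0.0270 CPM per kb and a ratio of 173-fold (47.6 to 1436). Its relative MYO7A, the motor of hair-cell stereocilia, had 5 against 1 counts and was not measured. RefSeq names an antisense gene at MYO7B (MYO7B-AS1, not analysed here), and without a stated strand setting reads of the pair cannot be told apart.

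MYO5B, a class V motor that carries recycling endosomes with RAB11, had 71 counts in PAX5 cells, against 10 in control cells (6.60-fold, 3.39 to 14.4). It stayed the least abundant of its class, at 0.627 against 0.0951 CPM per kb, and took 4.41% of class V counts in PAX5 cells (3.46 to 5.53) and 0.794% in control cells (0.381 to 1.45). MYO5A, which moves melanosomes and other vesicles, had 605 against 469 counts (log2 ratio 0.26, 0.09 to 0.44), and MYO5C, of secretory granules in epithelia, had 933 against 781 (0.15, 0.01 to 0.29). The increase past the rule was therefore seen for MYO5B and not called for its relatives, while the difference between them was not tested.

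MYO10, the motor of filopodial tips, lay just outside the rule, with 1376 counts in PAX5 cells and 585 in control cells, 10.1 against 4.63 CPM per kb, and a ratio of 2.19-fold whose lower bound was 1.98 (upper 2.41). MYO10 and MYO7B share the MyTH4 and FERM tail domains with MYO7A and MYO15A, and MYO15A had 1 count in each library. MYO9A and MYO9B, which carry a GTPase-activating domain in their tails, had log2 ratios of 0.51 (0.32 to 0.70) and 0.37 (0.28 to 0.46), with 588 against 384 and 2465 against 1770 counts. MYO18A (5323 against 4302 counts, 0.20, 0.14 to 0.26) and the muscle-associated MYO18B (2192 against 1594, 0.35, 0.26 to 0.45) also had intervals above 0, and MYO18B reached 21.5 against 16.8 CPM per kb, above MYO10 in both libraries. MYO6, which walks toward the minus end of actin, had 721 against 596 counts (0.17, 0.01 to 0.33). The mitochondrial motor MYO19 (392 against 391 counts) and MYO15B (142 against 142) had intervals that include 0, and MYO3B had 1 against 0 counts, while MYO3A and MYO16 had 0.

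**Figure D3:**
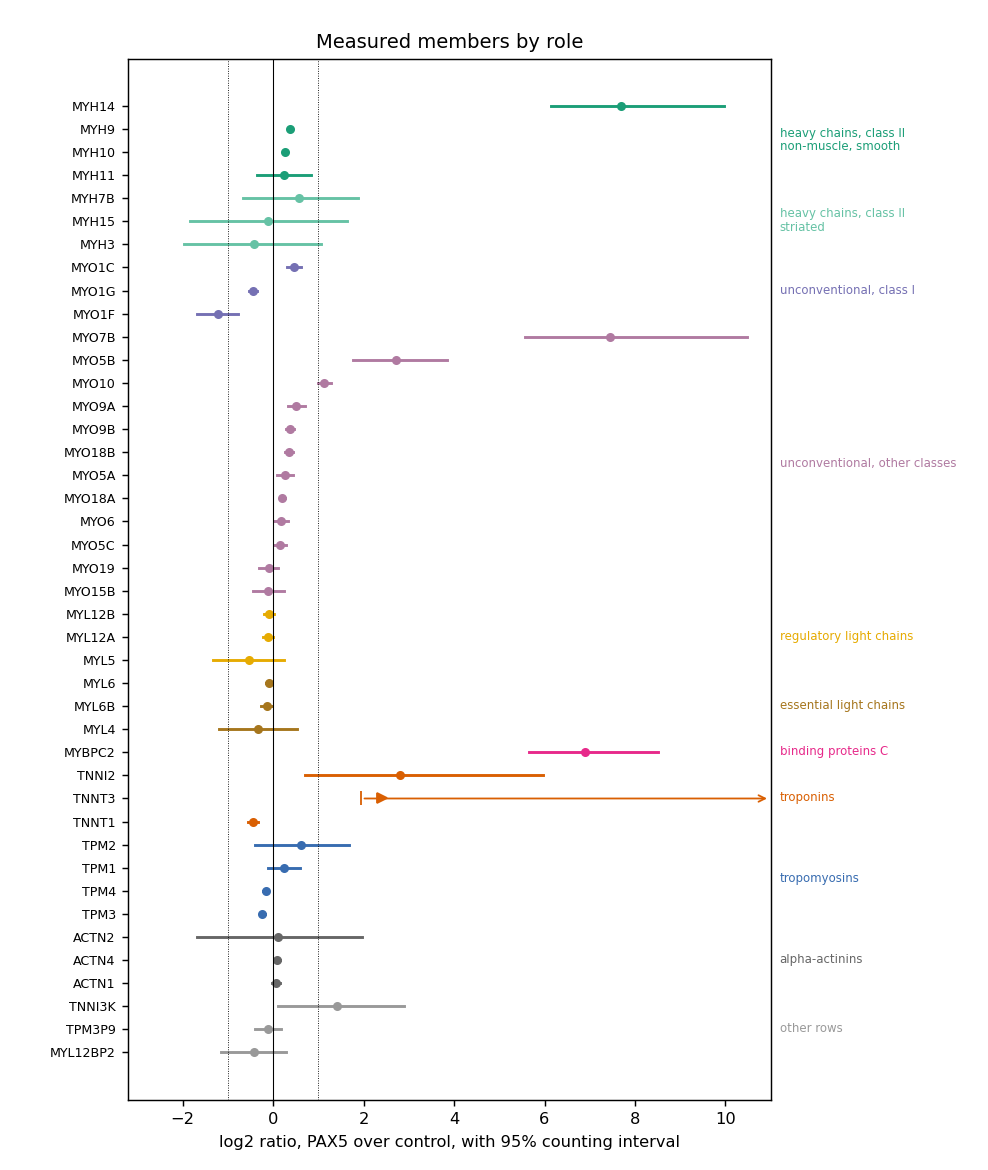
log2 ratio of the PAX5 over the control library (horizontal axis) for 42 measured members, one row each in role groups; points are ratios, lines are 95% counting intervals, dotted lines mark 2-fold, and TNNT3, with 0 control counts, is drawn from its lower interval bound with a triangle at its ratio over a floor of 3 counts. MYH14, MYO7B, MYO5B, MYBPC2 and TNNT3 lie wholly to the right of the 2-fold line, and MYO10 touches it.

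No light chain passed the rule. MYL6, the essential chain of non-muscle myosin II, was the most abundant member per length, at 395 CPM per kb in PAX5 cells and 419.6 in control cells, from 3542 and 3496 counts. Its log2 ratio was -0.09 (-0.15 to -0.02), an interval that lay above 0 instead after centring on gene length. MYL6B had 1120 against 1149 counts (-0.14, -0.26 to -0.02). The regulatory chains of non-muscle myosin, MYL12A with 1366 against 1377 counts (-0.12, -0.23 to -0.01) and MYL12B with 1201 against 1193 (-0.10, -0.21 to 0.02), were close to each other in level. MYL12A, MYL12B and MYL12BP2 (32 against 40 counts), like MYL6 and its pseudogene MYL6P5 (5 against 4), are near-identical in part and may have exchanged reads.

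Muscle light chains were low. MYL5 had 26 counts in PAX5 cells and 35 in control cells, MYL4, of atrial and embryonic muscle, had 23 and 27, and both intervals include 0. MYL1, MYL2, MYL3, MYL7 and MYL10 had 0 counts in both libraries, MYL9, of smooth muscle, had 1 in PAX5 cells and 0 in control cells, and MYL11, of fast skeletal muscle, had 0 and 1. Regulatory chains summed to 183 CPM per kb in PAX5 cells and 198 in control cells, and essential chains to 506 and 542.

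Of the myosin-binding proteins C, which sit on sarcomeric thick filaments, the fast skeletal form alone was measured. MYBPC2 had 639 counts in PAX5 cells, against 5 in control cells, 14.9 against 0.126 CPM per kb, a ratio of 119-fold (50.6 to 367). MYBPC3, the cardiac form, had 4 against 2 counts and MYBPC1, the slow skeletal form, had 0 in both. Per length, MYBPC2 stood above MYH14 (8.12 CPM per kb) and MYO7B (4.67) in PAX5 cells. All 11 striated heavy chains together summed to 0.452 CPM per kb there and 0.449 in control cells, and the fast chains MYH1, MYH2 and MYH4 had 0 counts.

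Among the troponins, TNNT1 was abundant in both libraries and TNNT3 alone passed the rule. TNNT3, fast skeletal troponin T, had 17 counts in PAX5 cells, against 0 in control cells. That is 5.27-fold higher if the control is taken as 3 counts, and the lower interval bound was 3.83-fold. TNNI2, fast skeletal troponin I, had 15 against 2 counts, 6.97-fold (1.62 to 62.8), and did not pass the rule. TNNT1, slow skeletal troponin T, had 1331 against 1688 counts, 107 against 146 CPM per kb (log2 ratio -0.45, -0.55 to -0.34).

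TNNT1 gave 96.9% of troponin counts in PAX5 cells (95.9 to 97.8) and 99.7% in control cells (99.3 to 99.9), so troponin message in these cells was almost wholly that 1 subunit. The cardiac inhibitor TNNI3 had 7 against 2 counts and fast troponin C, TNNC2, 2 against 1. TNNC1, the slow and cardiac troponin C, had 1 against 0 counts, and TNNI1 and TNNT2 had 0 in both. TNNI3K, a cardiac kinase that the symbol rule brings in, had 20 against 7 counts (1.41, 0.11 to 2.89).

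Tropomyosins and alpha-actinins, which every cell uses to stabilise and bundle actin, differed little. TPM4 had 4762 counts in PAX5 cells and 4961 in control cells (log2 ratio -0.16, -0.22 to -0.11) and TPM3 4277 and 4685 (-0.24, -0.30 to -0.18). TPM1 (153 and 121 counts) and TPM2 (23 and 14) had intervals that include 0. TPM3P9, a transcribed pseudogene of TPM3, had 208 and 209 counts, and reads of the pair may have been split. Of the non-muscle alpha-actinins, ACTN4 had 3632 and 3177 counts (0.09, 0.02 to 0.16), an interval that includes 0 under upper-quartile scaling and after centring on length, and ACTN1 had 2167 and 1931 (0.06, -0.03 to 0.15). The muscle forms were near the limit of detection, with 7 and 6 counts for ACTN2 and 4 and 0 for ACTN3.

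Gene length moved with these small differences. Measured features were divided into 10 equal groups by length, and their median log2 ratio was -0.21 in the shortest group and 0.19 in the longest. Members are long genes: the median length was 4777 bases over measured members and 2872.5 over all measured features, and 21 of 43 lay in the longest 2 groups. There, 15 of 21 members had intervals above 0 (71.4%), where 44.0% of all features in these groups did. After centring each group on its own median, the members' median log2 ratio was 0.06, intervals lay above 0 for 16 members (37.2%, against 16.0% of all measured features) and below 0 for 5 (11.6%, against 14.4%), and the same count of 5 members passed the rule.

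After that centring, the intervals of MYO18A, MYO5A, MYO5C, MYO6 and ACTN4 included 0, as did those of MYL12A and MYL6B. Those of MYO5C and MYO6 also did so when libraries were scaled by total counts or upper quartiles. That of MYL6 (0.12) lay above 0. The intervals of MYH9 (centred log2 ratio 0.19), MYH10 (0.07), MYO9A (0.32), MYO9B (0.18), MYO18B (0.16), MYO1C (0.36) and MYO10 (0.94) stayed above 0, and those of MYO1G (-0.43), MYO1F (-1.28), TPM3 (-0.43), TPM4 (-0.15) and TNNT1 (-0.24) stayed below. The centred values of MYH14 (7.50), MYO7B (7.25), MYBPC2 (6.86) and MYO5B (2.53) were close to the uncentred ones.

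**Figure D4:**
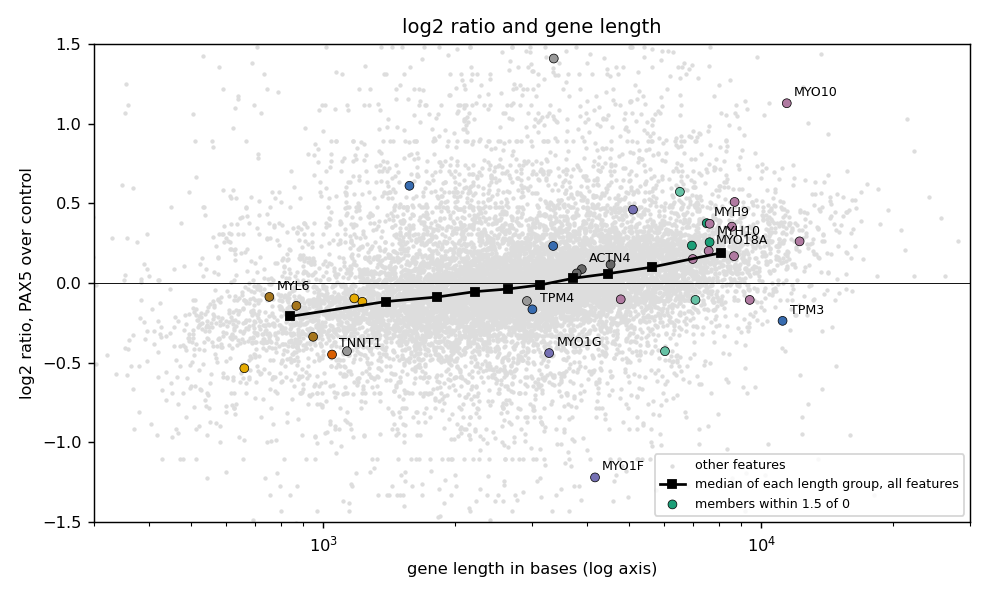
log2 ratio of the PAX5 over the control library (vertical axis, shown between -1.5 and 1.5) against gene length in bases (horizontal log axis); grey points are other measured features, the black line joins the medians of 10 length groups, and coloured points are members, in the colours of the role groups. Features outside the plotted ranges are not drawn. The line climbs to 0.19 in the longest group; MYH9, MYO9A and MYO10 lie above that value, and MYO1G lies below the line.

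MYH14 and MYBPC2 lie close together on chromosome 19, by RefSeq's gene order, with 6 genes of the table between them. The 6 did not move as a block. NAPSB had 0 counts in both libraries, NAPSA had 16 counts in PAX5 cells against 6 in control cells, and NR1H2 (511 against 507) and POLD1 (2142 against 2019) had intervals that include no change. SPIB, an Ets-family factor of B cells next to MYBPC2, had 122 against 35 counts and alone of the 6 passed the rule (3.24-fold, 2.21 to 4.86). On the outer sides, IZUMO2 had 0 counts and GARIN5A 24 against 27.

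Neighbours of other members also differed. Beside MYO7B lie LIMS2, an adaptor of focal adhesions, with 111 counts in PAX5 cells against 41 in control cells (2.52-fold, 1.74 to 3.69), and then GPR17. GPR17, a G-protein-coupled receptor, had 35 against 0 counts and passed the rule, with a lower interval bound of 8.36-fold (10.8-fold if the control is taken as 3 counts). IWS1, on the other side, had 1122 against 912 counts (log2 ratio 0.19). Between TNNI2 and TNNT3 lies LSP1, a lymphocyte protein that binds actin, with 98 against 21 counts, and it passed the rule at 4.34-fold (2.69 to 7.32). MRPL23, beyond TNNT3, had 671 against 807 counts. The neighbours of MYO5B, ACAA2 (1534 against 1414 counts), SCARNA17 (12 against 11) and CFAP53 (14 against 9), had intervals that include no change.

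**Figure D5:**
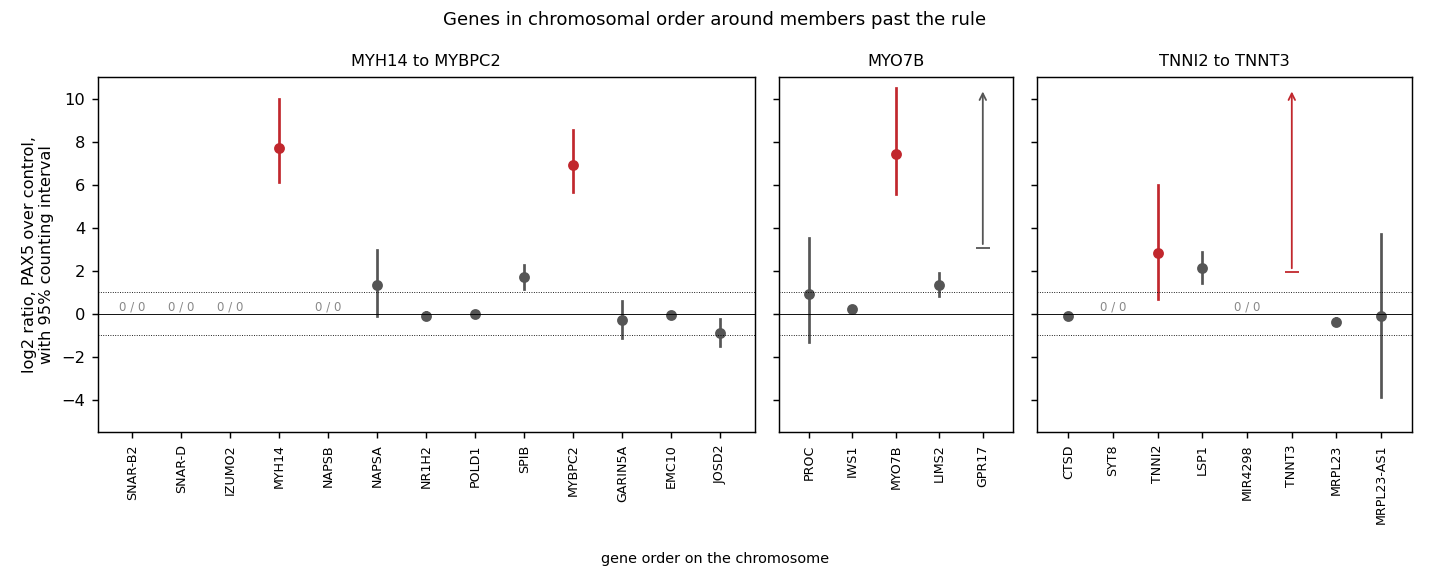
log2 ratio of the PAX5 over the control library (vertical axis) with 95% counting intervals for genes in chromosomal order (1 not shown) around MYH14 and MYBPC2, MYO7B, and TNNI2 and TNNT3; members are red, other genes grey, arrows start at the lower bound of genes with 0 control counts and "0 / 0" marks genes with 0 counts in both libraries. SPIB, GPR17 and LSP1, beside members, lie wholly beyond 2-fold and LIMS2 lies above 0, while NR1H2 and POLD1 between MYH14 and MYBPC2 lie at 0.

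The kinases and phosphatases that set myosin activity were measured beside the motors. Of 18 genes of this list, 16 were measured, none passed the rule, 7 had intervals above 0 and 1 below, and the list's median log2 ratio was 0.06. MYLK, the calcium-dependent light chain kinase, had 1651 counts in PAX5 cells and 1258 in control cells (log2 ratio 0.29, 0.18 to 0.39), ROCK2 had 1366 and 991 (0.36, 0.24 to 0.48) and citron kinase, CIT, 1956 and 1350 (0.43, 0.33 to 0.53). The phosphatase subunits PPP1CB (7867 and 6705 counts, 0.12) and PPP1R12A (3691 and 2997, 0.19) also had intervals above 0, ROCK1 (3576 and 3188, 0.06) and RHOA (1946 and 1879, -0.06) had intervals that include 0, and RHOC (827 and 941, -0.29) lay below. After centring on length, the intervals of MYLK (-0.01 to 0.20) and PPP1CB (-0.02 to 0.07) included 0 and that of ROCK1 (-0.20 to -0.06) lay below.

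No actin and no other sarcomere gene passed the rule. Of 6 actins, 4 were measured, with a median log2 ratio of -0.18. The cytoplasmic actins ACTB (26137 counts in PAX5 cells and 29436 in control cells, log2 ratio -0.28) and ACTG1 (26323 and 25889, -0.08, or 0.01 after centring on length) had intervals below 0, and skeletal ACTA1 (42 and 51 counts) and ACTA2 (34 and 24) had intervals that include 0. Of 33 other sarcomere and thin filament proteins, 11 were measured, with a median of -0.07. Intervals lay above 0 for 2 (18.2%, against 18.7% of all measured features) and below for none (against 16.8%). The giant scaffold TTN (144 and 140 counts), the pointed-end cap TMOD3 (2253 and 2043, 0.04) and the Z-disc and stress fibre protein PALLD (680 and 548, 0.21, with an interval that includes 0 after centring on length) were among the kinds detected, and DES, MYOT, MYPN and CSRP3 were among 13 with 0 counts in both libraries. The 9 genes of the list with 1 to 9 counts went both ways. The M-band protein MYOM3 had 9 against 0 counts, the Z-disc protein TCAP 6 against 0 and MYOM1 3 against 1. NEBL had 2 against 6 counts, CMYA5 1 against 5, FLNC 2 against 3, SMYD1 0 against 2, MYOZ1 0 against 1 and LDB3 1 against 1.

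No muscle transcription factor passed the rule. Of 18, 10 were measured, with 2 intervals above 0, 5 below and a median log2 ratio of -0.20. Of all measured features, 18.7% had intervals above 0 and 16.8% below. MYOD1, MYOG, MYF5 and MYF6, which direct skeletal muscle fate, had 0 counts in both libraries. MEF2C, which B cells also use, had 11245 counts in PAX5 cells and 12288 in control cells (log2 ratio -0.23). MEF2A had 3075 and 2172 (0.40, 0.32 to 0.48), with an interval that stayed above 0 after centring on length. SRF had 780 and 857 (-0.24), and MRTFB, a coactivator of SRF, had 873 and 540 (0.59, 0.43 to 0.74). Among 16 genes of muscle energy and calcium handling, 10 were measured, 3 had intervals above 0, none below, and 1, PVALB, passed the rule. By comparison, 18.7% of all measured features had intervals above 0 and 1.34% were higher by the rule. PVALB, the calcium buffer parvalbumin of fast fibres and some neurons, had 21 against 0 counts and a lower interval bound of 4.84-fold (6.51-fold if the control is taken as 3 counts). The list's median log2 ratio was 0.31 with PVALB, which had no control counts, ranked as the highest. Among the measured genes with counts in both libraries, the middle value was that of ENO3, at -0.05. RYR1, the calcium release channel of skeletal muscle, had 17 against 4 counts (1.98, 0.37 to 4.01) and JPH2, which holds calcium stores to the surface membrane, 488 against 285 (0.67, 0.46 to 0.89).

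Of 14 listed partners of class VII myosins and microvillus proteins, 5 were measured. None passed the rule, which 1.34% of all measured features passed upward, so with 5 genes this says little. Intervals lay above 0 for 2 (40.0%, against 18.7% of all measured features) and below for 1 (20.0%, against 16.8%). The log2 ratios of the 5 ran from -0.67, in the gene with an interval below 0, to 0.62, with a median of 0.31. USH1C and ANKS4B, which bind MYO7B in the brush border complex, had 0 counts in both libraries, and the adhesion molecules CDHR2 (3 counts in PAX5 cells and 2 in control cells) and CDHR5 (0 and 2) were not measured. CALML4, a light chain of MYO7B, had 675 and 639 counts (log2 ratio -0.03, -0.18 to 0.13). Ezrin, EZR, which links membranes to actin in lymphocytes as well as microvilli, had 7635 and 4623 counts (0.62, 0.57 to 0.67), and the bundling protein PLS1 had 185 and 117 (0.56, 0.21 to 0.90).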

How the data were processed

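Total RNA of GFP-sorted REH cells was sequenced as 1 library per group. The authors deposited raw counts for each gene, listed by Entrez number with its length, which come from featureCounts and hg19 (GRCh37), per the submitters' processing notes. Not given in the sources used here are the aligner, the strand setting and how reads shared by several genes were handled. Columns were matched to libraries by the library number that also names each single-library file, and all 51404 values were the same in both. Symbols came by Entrez number from RefSeq (GRCh38.p14) for 23696 of 25702 rows. The 2006 others held 0.519% of PAX5 counts and 0.590% of control counts and stayed in the totals. RefSeq gave names, gene order and promoter windows only.

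TMM scaling (edgeR 4.0.16, R 4.3.3) used rows with at least 10 counts and gave factors of 0.99538 for PAX5 and 1.00464 for control, which enter CPM and log2 ratios. With 1 library per group edgeR and DESeq2 have no residual degrees of freedom, so differences were judged by a rule of size and not tested. Ratios carry exact 95% intervals (Clopper-Pearson, given the sum of both counts; scipy 1.17.1). Intervals and the floor of 3 counts cover counting error only, since PCR reads are not independent molecules. On the log2 scale an interval spans about 2.1 to either side at 10 counts and 0.18 at 1000. The rule was run on all rows and tested on simulated data. The simulated counts held counting error only, so that test cannot show how the rule behaves under variation between cultures.

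The members, the gene lists and the rule were chosen with earlier results of these data known. Named are members past the rule, members with intervals off 0, list genes past the rule or with the most counts, and near neighbours of called members. Other members and list genes named with their counts were chosen after their values were seen. A few genes are counted in totals but not reported here. Alternatives were scaling by total counts, DESeq2 1.42.0 size factors or upper-quartile factors, centring on length, other count minimums, bounds at 1.5-fold and 4-fold, a point ratio, an assumed coefficient of variation of 0.1 or 0.2, the mean, protein-coding members and the single-library files.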

Additional observations from a re-analysis of the deposited data

How the results depend on the processing

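The count of 5 higher members was 5 under each scaling, after centring on length, without a count minimum, with an assumed coefficient of variation of 0.1 or 0.2 and from the single-library files, and 4 with a minimum of 50 counts, which leaves out TNNT3. A bound at 4-fold left 3 members (MYH14, MYBPC2 and MYO7B), and 70 higher and 2 lower features of all. A bound at 1.5-fold gave 7 higher members (adding MYO10 and TNNI2) and 1 lower (MYO1F), with 355 and 47 of all features. A point ratio of 2-fold gave 8 and 1 members, with 547 and 234 of all. Of all features, a minimum of 50 counts left 113 higher and 4 lower, a coefficient of variation of 0.2 left 118 and 3, and centring on length left 4 lower. The members' mean log2 ratio, over members with counts in both libraries, was 0.72, against a median of 0.17, with MYH14, MYO7B and MYBPC2 at 7.69, 7.44 and 6.89. In alternatives added after the data had been seen, centring on length left 5 members with intervals below 0 (1945 of all features), and other scalings gave 17 to 20 members above (2176 to 2618 of all) and 8 or 9 below (2164 to 2785 of all). No paired analysis was possible because each group has 1 library. For members near 10 counts, differences under about 4-fold are within counting error, and variation between cultures is not measured.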

Other observations

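Genes of the fast skeletal muscle fibre, gathered here after their values were seen and so given without any test, did not behave alike. MYBPC2 had 639 counts in PAX5 cells and 5 in control cells, PVALB had 21 and 0, TNNT3 17 and 0, TNNI2 15 and 2 and ACTN3 4 and 0. The fast heavy chains MYH1, MYH2 and MYH4 and the light chain MYL1 had 0 counts in both libraries, MYL11 had 0 and 1, TNNC2 had 2 and 1, CASQ1, the calcium store protein of fast fibres, had 0 and 2, and ATP2A1, the fast-fibre calcium pump, had 20 and 21. MYBPC2 had by far the most counts of this group in PAX5 cells.

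TNNT1 was the reverse case, a slow-fibre subunit without its partners: it had 1331 counts in PAX5 cells and 1688 in control cells, while slow troponin I, TNNI1, had 0 in both and TNNC1 had 1 and 0. Of its neighbours in RefSeq's order, PPP1R12C had 606 and 575 counts and TNNI3 had 7 and 2, and DNAAF3, beyond TNNI3, had 48 and 80.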
